A study of Mus musculus with 4 samples.

Results

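The 46 genes described here carry out mitosis and the segregation of chromosomes, and were taken as every probe set of the array whose annotated gene symbol is 1 of these 46 names. Of the 46, 44 had at least 1 probe set, for 81 of the 22690 probe sets in the table, and Ccnb1 and Espl1 had no probe set under these symbols in the annotation used here. They were measured in YAMC cells, a mouse colon cell line, on 4 Affymetrix 430A arrays. On 2 arrays the RNA came from cells left untreated, and on the other 2 from cells kept for 16 h in medium conditioned by the probiotic bacterium Lactobacillus GG (LGG). Each group had 1 array at each of 2 dates named in the titles, called date 1 and date 2. The labels do not state whether the arrays stand for separate cultures, so the spread that the p-values are set against may be technical. That spread is mostly a variance shared across genes, as given with the processing. YAMC cells are known to carry a temperature-sensitive SV40 large T antigen under an interferon-inducible promoter, a protein that binds the retinoblastoma protein and p53. The culture temperature and interferon supply of either group are not given in the sources used here, and neither is a control of unconditioned bacterial medium.

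In a dividing cell, cyclin A and cyclin B activate the kinase CDK1, which starts mitosis together with the Polo-like and Aurora kinases. Condensins and topoisomerase II compact and untangle the chromosomes, kinesins and their partners build the spindle, and the chromosomal passenger complex corrects wrong attachments. The spindle checkpoint holds the cell until every chromosome is attached, after which the anaphase-promoting complex destroys securin and cyclin B and the cell divides. Most of these transcripts peak in G2 and mitosis under the factors B-MYB and FOXM1, so their sum in a population of cells is widely used as a readout of proliferation. In RNA from whole cultures, more cells in G2 or mitosis and more RNA of a gene per cell cannot be told apart.

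The values are linear intensities, with trimmed means between 499.3 and 513.08 on the 4 arrays, and the number of arrays limits their precision. For 6307 probe sets the table is blank at date 1 in both groups. RNA integrity was read from the Gapdh probe sets at the 3' and 5' ends of the transcript. Their ratio was 0.805 (date 1) and 0.784 (date 2) without treatment and 0.931 and 0.768 with it, and its part in the results was not tested. The labelled colon epithelium was set against marker genes. Only 3 of 11 epithelial markers, the keratin genes Krt8, Krt18 and Krt19, passed the filter on dim probe sets, while Epcam measured 6.0 to 9.0, Cdh1 8.7 to 41.8 and Vil1 1.7 to 10.5. Of 10 fibroblast markers 6 passed, among them Vim (9532.0 to 12488.5) and Col1a1 (6568.6 to 10156.3). The defining markers of colon epithelium outside the keratins were thus near the floor of the array. The summed intensity of the fibroblast markers was 33480 to 38470 on the untreated and 27840 to 29920 on the treated arrays, and that of the epithelial markers 2561 to 3706 and 3368 to 3651. Within the epithelial sum, Krt18 was higher at both dates (log2 change 0.66) and Krt19 lower at both (-0.72). Krt8 (0.23) had opposite signs at the dates, and none of these keratin genes reached the threshold used below. The fibroblast gene Dcn fell (log2 change -0.91). Of 9 leukocyte markers 2 passed the filter. Of these Cd68 rose (1.06), while Csf1r (-0.12) had opposite signs at the dates and did not pass the test. Below the filter, Lyz2 was lower and Itgam higher at both dates, and Ptprc measured 15.4 to 37.2. The leukocyte list summed to 548.4 to 752.5 untreated and 697.3 to 806.3 treated. Of 5 endothelial markers 1 passed the filter and rose, Kdr (1.29), while Pecam1 (48.0 and 34.1 untreated, 12.1 and 21.3 treated) and Tek (149.4 and 96.1 untreated, 36.8 and 51.4 treated) had lower values after treatment below the filter, and the list summed to 309.0 to 398.3 and 452.2 to 487.0. The part of these shifts in the results below was not tested.

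After LGG conditioned medium, 3 mitosis genes rose and 0 fell. They were Aurkb and Incenp, which encode the kinase and the scaffold of the chromosomal passenger complex, and Top2a, which encodes topoisomerase II alpha. They stood within a wider shift to higher values. The set was chosen with earlier results of these data known, so this shift is a description and was not tested. Of the 38 genes that could be tested, 34 had a fitted change above 0, against 53.8% of all 6952 genes tested. The median log2 change of the 38 was 0.39, against 0.03 over all genes. A gene passed when limma, with date as a block, gave a Benjamini-Hochberg adjusted p under 0.05 over all probe sets. Over all genes 3.01% rose and 3.5% fell, 6.5% in all, so a count of 3 among 38 says little by itself. On simulated data this fit also made more false calls than its threshold allows. Without date as a block, 0 of the 38 genes passed (11 at an unadjusted p under 0.05 by limma), and 0.877% of all genes did. At an unadjusted p under 0.05 the count was 20 higher and 0 lower, against 10.5% and 9.82% of all genes. Changes are on the scale log2(intensity + 25.2), which understates the change of dim genes.

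The direction was shared by the dates. At both dates the treated array was the higher one for 30 of the 38 genes, against 35.1% of all genes tested. It was the lower one at both dates for 3, against 30.2%, and the dates had opposite signs for the remaining 5 genes. Both treated arrays lay above both untreated arrays for 27 genes, where 26.2% of all genes did so, and below them for 3, where 22.3% did. The median log2 ratio of the 38 genes was 0.28 at date 1 and 0.42 at date 2, while that of all genes was -0.02 and 0.08. The shift was modest in size. A ratio of 1.5 or more at each of the dates was seen for Aurkb, Bub1, Top2a and Tacc3 (3.71% of all genes reached it), and an equal change downward for 0 (3.96%).

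**Figure D1:**
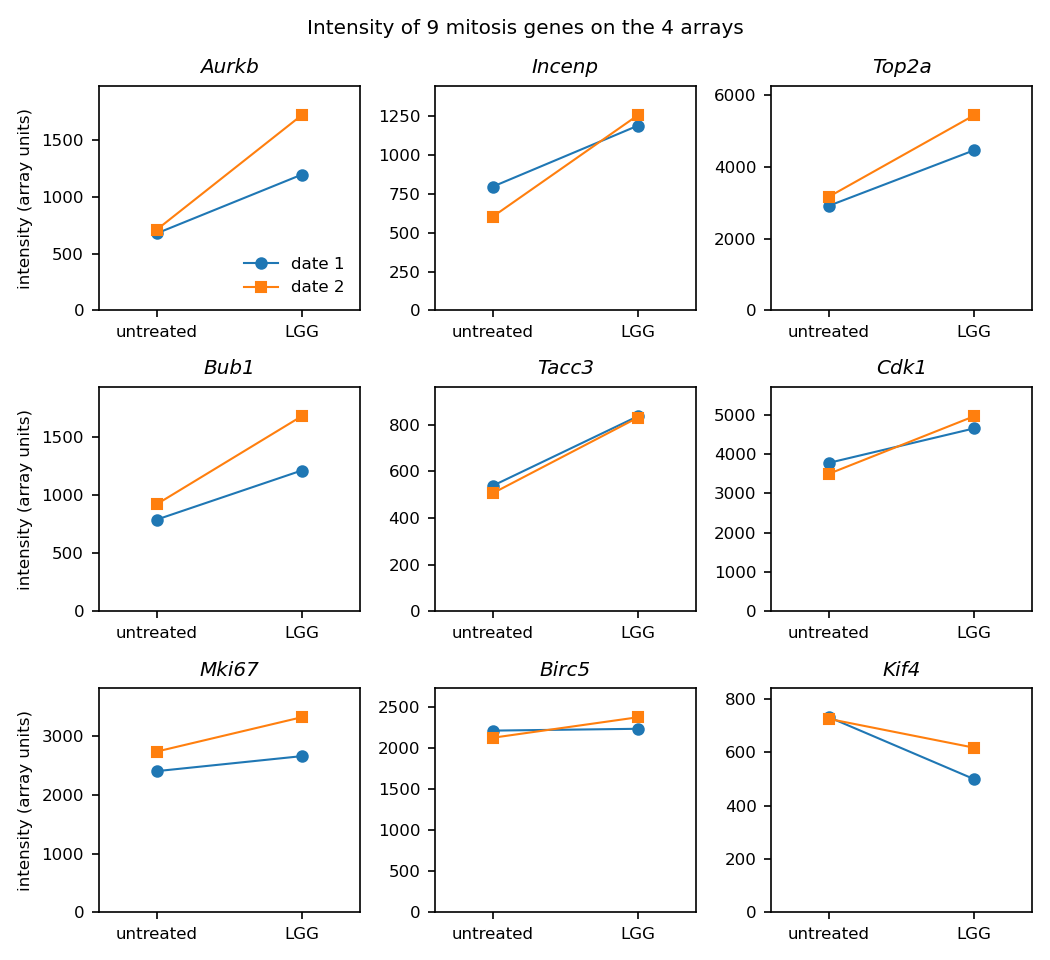
Intensity in array units (vertical axis, from 0) of 9 mitosis genes on the untreated and the LGG arrays, with a line joining the arrays of each date (circles date 1, squares date 2). Aurkb, Incenp and Top2a passed the test, Bub1, Tacc3 and Cdk1 were higher at both dates without passing, Mki67 and Birc5 moved little, and Kif4 was lower at both dates.

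The chromosomal passenger complex held the largest changes. It couples the kinase Aurora B (Aurkb) to the scaffold Incenp and to survivin (Birc5), and it frees chromosomes that are wrongly attached to the spindle. Untreated cells read 677.9 and 710.3 for Aurkb at dates 1 and 2, and treated cells 1194.9 and 1718.1. The groups did not overlap, and the treated array was higher by a log2 ratio of 0.80 at date 1 and 1.25 at date 2. In means, Aurkb rose from 694 ± 22.9 to 1456 ± 370.0 (SD, n = 2 arrays in each group). The fitted log2 change was 1.02 with an SE of 0.21 (limma, adjusted p = 0.0128, or 0.0868 with no block), and every later ± on a log2 change is an SE. Its dimmer probe set had a log2 change of 0.76 (adjusted p = 0.0868). Both probe sets of Aurkb carry the suffixes by which Affymetrix marks probes that can match other transcripts, so the share of signal that belongs to Aurkb is uncertain.

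Incenp read 797.2 and 604.1 in untreated and 1189.3 and 1256.4 in treated cells, again without overlap. It rose from 701 ± 137 to 1223 ± 47.5 (SD, n = 2), a log2 change of 0.79 ± 0.22 (limma, adjusted p = 0.0457, or 0.130 without the block). This call is close to the threshold, and the probe sets of Incenp do not move alike. The second measured 331.4 and 379.8 untreated and 226.2 and 722.6 treated, so it was lower at date 1 and higher at date 2, with a fitted log2 change of 0.19 (adjusted p = 0.784). The third, with values at date 2 only, went from 1877.2 to 2548.2. Birc5 measured 2217.4 and 2130.5 untreated and 2239.6 and 2380.1 treated. Its log2 change of 0.09 ± 0.17 was within the spread of the fit (adjusted p = 0.839), although it belongs to the same complex.

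Among genes of chromosome structure, 1 of 5 tested passed. Top2a, whose enzyme untangles sister chromatids, read 2921.8 and 3175.6 in untreated and 4468.0 and 5445.0 in treated cells, with no overlap. It rose from 3049 ± 180 to 4956 ± 691 (SD, n = 2), a log2 change of 0.69 ± 0.15 (limma, adjusted p = 0.0157, or 0.111 without the block), and its log2 ratios of 0.61 and 0.77 at dates 1 and 2 were close to each other. A second Top2a probe set, at 4.2 and 6.2 at date 2, was too dim to use. The condensin subunit gene Smc4 had 3 probe sets. The brightest measured 2804.2 and 3029.8 untreated and 3388.7 and 4595.9 treated (log2 change 0.43, adjusted p = 0.139). Another passed by itself, with 663.9 and 1364.9 untreated and 1373.0 and 1970.7 treated (0.77, adjusted p = 0.0429), and the third had opposite signs at the dates (treated 528.0 against untreated 610.9 at date 1, and 1072.0 against 661.4 at date 2). Ncapd2, another condensin subunit gene, had a log2 change of 0.36 ± 0.21 and Smc2, the partner of Smc4, 0.17 ± 0.17, neither of which passed. Mki67, which encodes the Ki-67 protein that coats mitotic chromosomes and marks cycling cells in pathology, measured 2406.6 and 2739.9 untreated and 2662.0 and 3324.5 treated. Its groups overlapped, and its log2 change was 0.21 ± 0.16 (adjusted p = 0.523).

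**Figure D2:**
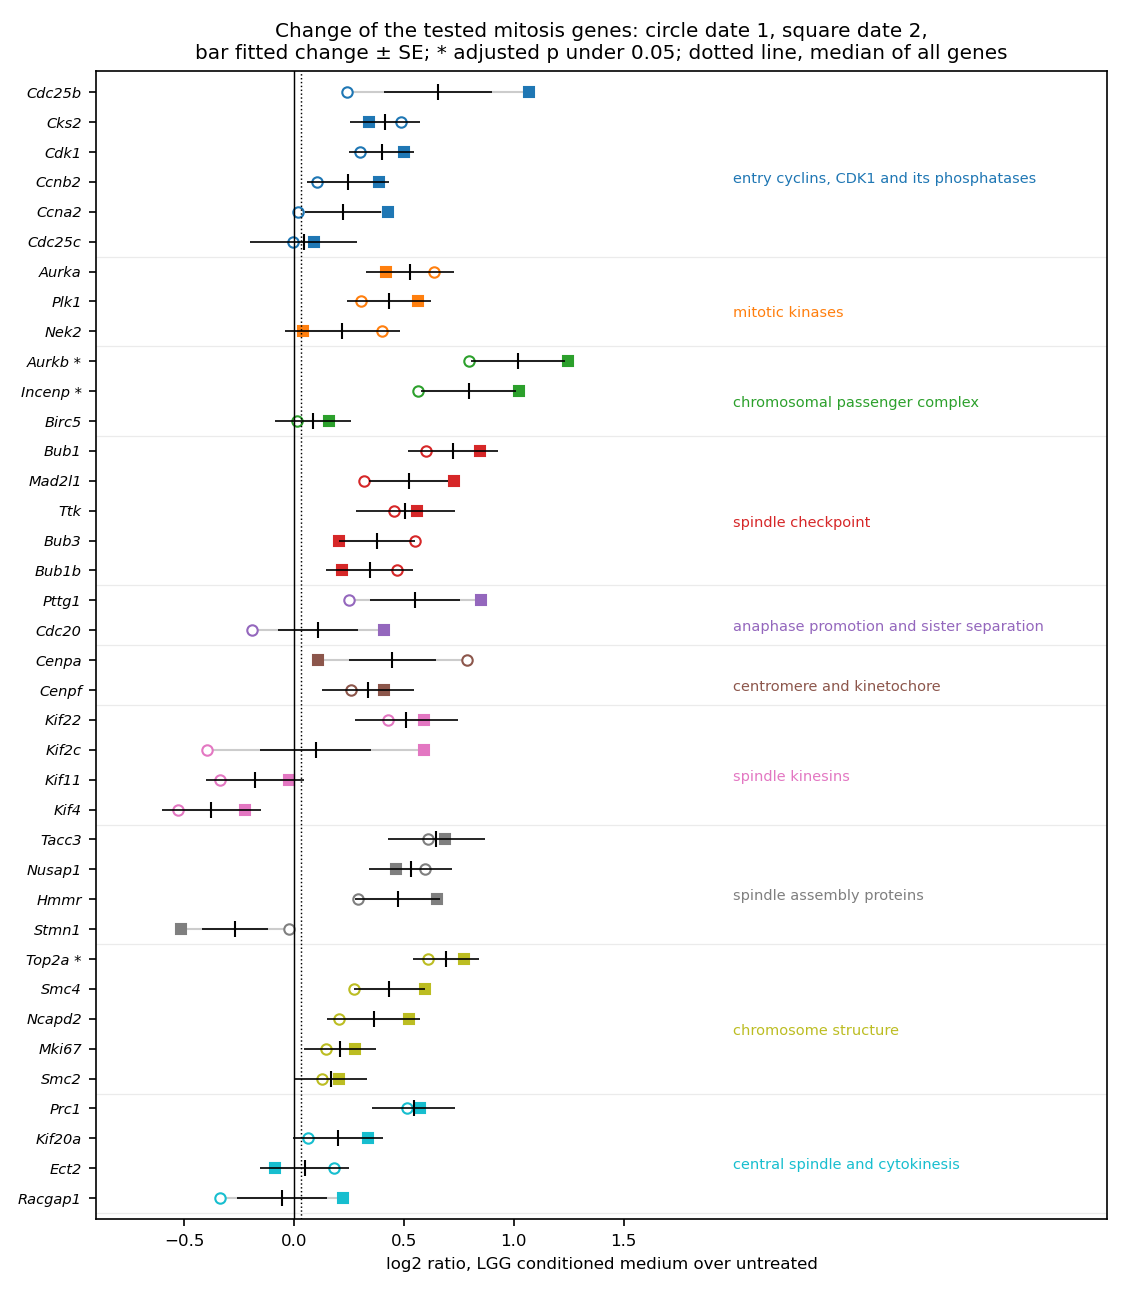
Log2 ratio of LGG over untreated (horizontal axis) for the 38 tested mitosis genes, grouped by role, at date 1 (open circles) and date 2 (squares), with the fitted change and its SE (black) and the median of all genes (dotted line, 0.03). Genes with an asterisk passed at an adjusted p under 0.05, the spindle checkpoint genes lie to the right of 0 at both dates, and 3 of the 4 spindle kinesin genes lie to the left of 0 at date 1.

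All 5 spindle checkpoint genes were higher at both dates (35.1% of all genes were) and in both treated arrays than in either untreated array (26.2%). Their log2 changes lay between 0.34 and 0.72 with a median of 0.51, but 0 passed. An unadjusted p under 0.05 by limma was seen for 4, against 20.4% of all genes in either direction. Bub1, the kinase that recruits the checkpoint to kinetochores, measured 790.9 and 923.5 untreated and 1213.9 and 1681.6 treated. Its log2 change of 0.72 ± 0.20 narrowly missed the threshold (limma, adjusted p = 0.0513). Mad2l1, which inhibits the activator of the anaphase-promoting complex, measured 1911.6 and 2173.1 untreated and 2387.9 and 3610.3 treated (0.52 ± 0.18, adjusted p = 0.107). Ttk, the checkpoint kinase also called MPS1, measured 410.6 and 487.0 untreated and 572.2 and 728.8 treated (0.51 ± 0.23, adjusted p = 0.225). These 3 genes moved further at date 2, whereas Bub3 (0.55 and 0.20) and Bub1b (0.47 and 0.22) had the larger log2 ratio at date 1. A dimmer probe set of Bub3 had a log2 change of -0.20, opposite in sign to the brightest at 0.38, and their mean was 0.09. A dim probe set of Bub1 with values at date 2 only went from 121.0 to 97.9.

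Of the 6 genes tested that start mitosis 0 passed (3 had an unadjusted p under 0.05 by limma, against 20.4% of all genes). Their fitted log2 changes lay between 0.04 and 0.65, and 5 of them were higher at both dates (35.1% of all genes). Cdk1 measured 3774.0 and 3497.1 untreated and 4647.9 and 4956.1 treated, without overlap (log2 change 0.40 ± 0.15, adjusted p = 0.140). Cdc25b, a phosphatase that activates CDK1, measured 596.4 and 526.2 untreated and 708.6 and 1132.0 treated. Its log2 ratio was 0.24 at date 1 and 1.07 at date 2 (fitted 0.65 ± 0.25, adjusted p = 0.142), so the ratio was much the larger at date 2. Cks2, a small CDK1-binding subunit, had a log2 change of 0.41 ± 0.16 (adjusted p = 0.154). The cyclin genes had smaller values, with log2 ratios of 0.02 and 0.43 for Ccna2 and 0.11 and 0.39 for Ccnb2. Cdc25c, a second phosphatase of this kind, measured 249.4 and 342.9 untreated and 248.9 and 367.0 treated, a log2 change of 0.04.

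All 3 mitotic kinase genes outside these complexes were higher at both dates (35.1% of all genes) and without overlap (26.2%). Of these 0 passed (2 had an unadjusted p under 0.05 by limma, against 20.4% of all genes). Aurka, the spindle pole kinase and paralog of Aurkb, measured 939.7 and 1188.3 untreated and 1476.0 and 1597.3 treated (log2 change 0.53 ± 0.20, adjusted p = 0.144). Plk1, the Polo-like kinase, measured 1416.0 and 1401.1 untreated and 1754.3 and 2080.8 treated (0.43 ± 0.19, adjusted p = 0.214). For Nek2, which separates centrosomes, the log2 ratio was 0.40 at date 1 but 0.04 at date 2.

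Of the genes that bring about sister separation, Pttg1 (securin) had 3 probe sets, all higher with treatment. The brightest with values at both dates measured 1179.4 and 1577.8 untreated and 1406.6 and 2864.5 treated, so its groups overlapped (log2 change 0.55 ± 0.20, adjusted p = 0.138). A dimmer one measured 232.7 and 260.3 untreated and 432.2 and 453.1 treated (0.79, adjusted p = 0.0708). Cdc20, the activator of the anaphase-promoting complex that the checkpoint holds back, had log2 ratios of -0.19 and 0.41. At the centromere, Cenpa, the histone H3 variant that marks it, measured 1458.6 and 2400.5 untreated and 2536.6 and 2586.6 treated. Its log2 ratio of 0.79 at date 1 and 0.11 at date 2 follows a low untreated value at date 1. Cenpf, a kinetochore protein of G2 and mitosis, had a log2 change of 0.33 ± 0.21 (adjusted p = 0.408), and its dimmer probe set had opposite signs at the dates (-0.13 and 0.61).

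Of the 4 spindle motor genes 0 passed (1 had an unadjusted p under 0.05 by limma, against 20.4% of all genes). Their fitted log2 changes ran from -0.38 to 0.51. Kif4, a chromosome-bound kinesin, measured 731.1 and 724.8 untreated and 499.4 and 617.2 treated, below the untreated arrays at both dates (log2 change -0.38 ± 0.22, adjusted p = 0.383). Kif11, the kinesin that pushes spindle poles apart, had 3 probe sets with fitted log2 changes of -0.18, -0.18 and -0.50, none of which passed. All 3 were lower at date 1, by log2 ratios of -0.34, -0.57 and -0.96, whereas at date 2 these were -0.02, 0.21 and -0.05. Kif2c, a microtubule depolymerase at centromeres, had a log2 ratio of -0.40 at date 1 but 0.59 at date 2, while Kif22, a kinesin that pushes chromosome arms outward, had 0.43 and 0.59. Another Kif22 probe set, brighter but with values at date 2 only, went from 2067.3 to 1686.9. Of the spindle assembly proteins, Tacc3, which stabilises spindle microtubules, was the steadiest gene, with 538.5 and 506.6 untreated and 835.9 and 830.1 treated (0.65 ± 0.22, adjusted p = 0.105). Nusap1 (0.53 ± 0.19, adjusted p = 0.127) and Hmmr (0.47 ± 0.19, adjusted p = 0.185), both spindle-associated proteins, were also higher at each date on their brightest probe sets. Another probe set of Hmmr was lower at date 1 (411.5 to 305.2) and higher at date 2 (436.6 to 829.4). Stmn1 (stathmin), which destabilises microtubules and is not confined to mitosis, measured 5789.0 and 5973.4 untreated and 5689.3 and 4172.0 treated (-0.27 ± 0.15, adjusted p = 0.347). Its dimmer probe set measured 180.7 and 204.6 untreated and 171.4 and 96.5 treated (-0.49), and did not pass either.

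Genes of the central spindle and of cytokinesis, the division of the cytoplasm, moved unevenly. Of 4 tested 0 passed (1 had an unadjusted p under 0.05 by limma, against 20.4% of all genes). Prc1, which bundles the central spindle, measured 1228.4 and 1404.6 untreated and 1766.3 and 2100.3 treated (log2 change 0.54 ± 0.19, adjusted p = 0.112), and its dimmer probe set had a log2 change of 0.72 (adjusted p = 0.0573). Kif20a, a kinesin of the cleavage plane, had a log2 change of 0.20 ± 0.21. Racgap1 and Ect2, which act together on RhoA to place the cleavage furrow, had log2 changes of -0.06 and 0.05, each with opposite signs at the dates. A second probe set of Racgap1 had a log2 change of 0.01.

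Of the 44 genes, 6 had no probe set past the filter with values at both dates. They were read only at date 2, where each group has 1 array and no test is possible. Ncapg, a condensin subunit gene, went from 342.9 to 859.4 and from 396.1 to 497.4 on its probe sets, and Anln, which encodes the cytokinesis scaffold anillin, from 2491.3 to 4032.4. Ube2c, the ubiquitin-conjugating enzyme of the anaphase-promoting complex, went from 2911.4 to 3462.2. The probe sets of Tpx2, an activator of Aurora A, disagreed (945.0 to 1506.6 and 677.4 to 463.1), as did those of Kif23, a central spindle kinesin (877.9 to 1301.3 and 147.7 to 131.2). Another Kif23 probe set had values at both dates but lay below the filter (41.3 and 53.8 untreated, 72.2 and 50.6 treated). Cenpe, a kinetochore motor, went from 132.6 to 86.7. Over all mitosis genes, 20 probe sets with values at date 2 only were bright enough, of which 7 were at least 1.5-fold higher and 1 at least 1.5-fold lower. Among all such probe sets of the array 13.4% and 12.8% were.

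Promoter sequences are shown because most of these genes were fitted higher together, and because a CHR element (TTTGAA or TTCGAA), read by the MuvB complex, and the NF-Y box (CCAAT) upstream of it are known to drive G2 and mitosis genes. RefSeq windows of 300 bases, from 250 before to 50 after the annotated start, were found for 38 of the 46 genes (41 windows, build GRCm38.p6), and for neither Aurkb nor Incenp. Both strands were searched. A CHR element was present in 32 of the 41 windows (78.0%), against 19.2% of all windows of that table and 17.6% of those of protein-coding genes. The NF-Y box was present in 34 (82.9%), against 37.4% and 38.2%, and both together in 30 (73.2%), against 7.52% and 7.11%. Matches of the CHR element and the NF-Y box overlapped each other in 0 windows. The E2F sites TTTGGCGC and TTTCCCGC were present in 2 of the 41 (4.88%, against 1.56% of all windows). Of the 44 CHR matches 29 lay within 50 bases of the start, and of the 75 NF-Y matches 46 lay in the 100 bases before it. Bub3, Ect2 and Prc1 have overlapping windows. Their matches, and these genes in the shares of windows, are thus counted more than once.

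**Figure D3:**
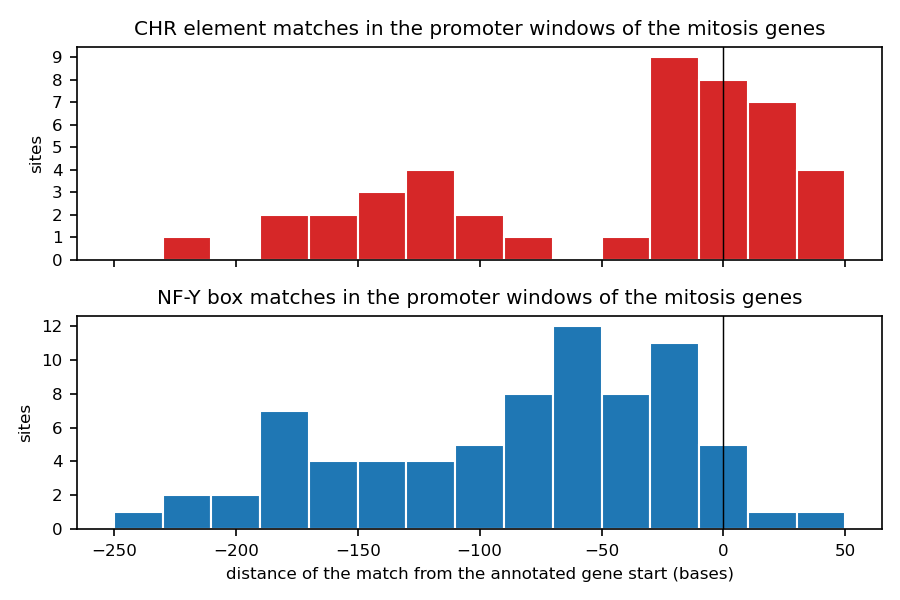
Number of matches (vertical axis) to the CHR element (top) and the NF-Y box (bottom) by distance from the annotated gene start in bases (horizontal axis, bins of 20), on either strand, in the 41 promoter windows of the mitosis genes. CHR matches gather at the start, and NF-Y matches gather in the 100 bases before it. Matches in the overlapping windows of Bub3, Ect2 and Prc1 are counted in each window.

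The stretches below run from 150 bases before to 20 bases after the start, on the strand of the gene, with each CHR and NF-Y match in capitals on either strand. They belong to Top2a, which rose (chr11:99024170-99024339, minus strand), to Bub1, which missed the threshold narrowly (chr2:127831840-127832009, minus strand), to the entry genes Cdk1 (chr10:69352893-69353062, minus strand) and Ccnb2 (chr9:70421535-70421704, minus strand), to Kif11, whose brightest probe set was lower at both dates (chr19:37376232-37376401, plus strand), and to Mad2l1, which was higher at both dates (chr6:66535071-66535240, plus strand).
Top2a: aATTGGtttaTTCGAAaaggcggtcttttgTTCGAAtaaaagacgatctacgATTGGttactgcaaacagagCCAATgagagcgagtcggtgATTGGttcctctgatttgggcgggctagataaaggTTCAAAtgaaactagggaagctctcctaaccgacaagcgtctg
Bub1: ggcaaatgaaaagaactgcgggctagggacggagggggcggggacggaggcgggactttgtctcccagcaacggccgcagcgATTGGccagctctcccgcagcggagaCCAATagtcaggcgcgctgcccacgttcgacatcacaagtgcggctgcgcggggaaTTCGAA
Cdk1: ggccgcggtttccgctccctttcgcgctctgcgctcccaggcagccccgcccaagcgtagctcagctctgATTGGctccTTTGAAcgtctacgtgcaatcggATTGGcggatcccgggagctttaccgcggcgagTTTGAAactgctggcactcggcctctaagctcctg
Ccnb2: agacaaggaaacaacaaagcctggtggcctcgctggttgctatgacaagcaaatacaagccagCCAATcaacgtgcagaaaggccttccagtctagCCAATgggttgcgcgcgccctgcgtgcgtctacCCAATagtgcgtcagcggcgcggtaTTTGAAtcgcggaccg
Kif11: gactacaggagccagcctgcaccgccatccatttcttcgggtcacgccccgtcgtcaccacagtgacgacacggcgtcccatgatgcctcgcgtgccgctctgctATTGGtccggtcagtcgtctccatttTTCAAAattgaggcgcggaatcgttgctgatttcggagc
Mad2l1: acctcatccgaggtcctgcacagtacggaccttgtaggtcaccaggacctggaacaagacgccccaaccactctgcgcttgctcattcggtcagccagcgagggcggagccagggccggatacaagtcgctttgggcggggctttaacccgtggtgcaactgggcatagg
Top2a, Cdk1, Ccnb2 and Kif11 hold a CHR element near the start with at least 1 NF-Y box before it, and in Bub1 the CHR element lies just after the start. Mad2l1 holds neither motif in its window. Of the tested genes with a window, 18 of the 25 that were higher at both dates held a CHR element. So did 6 of the 6 others, among them Kif4, Kif11 and Kif2c. With so few others, these counts cannot show whether the CHR element goes with the values, which was not tested. The NF-Y box was not counted by these groups. A match is a run of letters and was not tested as a binding site.

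Genes of the same processes outside the 46 had a smaller median change than the 38 tested mitosis genes (0.39), but their lists mix different roles. Of 101 such genes tested in 6 lists, 6 rose and 0 fell (20 had an unadjusted p under 0.05 in either direction by limma, a share near the 20.4% of all genes), with a median log2 change of 0.11. They did not move alike, with 43 higher at both dates, 25 lower at both and 33 opposite. Without passing, Cep55 (0.53), Plk4 (0.42) and Sgo1 (0.40) lay at or above the median of the mitosis genes. Smc1a (-0.37) and Tubb4b (-0.41) were lower and did not pass either. The part of this mix in the median of 0.11 was not tested. Of 9 cohesin genes 1 rose: Cdca5 (sororin), which holds sister chromatids together, measured 871.3 and 1094.5 untreated and 1951.4 and 1950.3 treated (0.98 ± 0.20, adjusted p = 0.0105, or 0.0651 without the block). The cohesin subunit genes Stag1 (-0.58) and Smc3 (-0.39) did not pass. Of 25 other spindle and cytokinesis genes 2 rose, Cit, which encodes citron kinase of the midbody (121.2 and 69.7 untreated, 217.5 and 230.3 treated; 1.08 ± 0.28, adjusted p = 0.0381), and Rcc1, the exchange factor that makes Ran-GTP around chromosomes (208.3 and 226.5 untreated, 514.2 and 408.3 treated; 1.00 ± 0.25, adjusted p = 0.0292). Tubb2a (0.65) and Depdc1a (0.57) did not pass.

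Of 24 genes that control mitotic entry and exit 3 rose. Pbk, a mitotic kinase, measured 989.8 and 1444.1 untreated and 2155.1 and 2066.3 treated (0.81 ± 0.20, adjusted p = 0.0317). The stress sensors Gadd45a (1.92) and Gadd45b (0.84), which can inhibit CDK1, rose too, and of the 6 genes Gadd45a alone kept an adjusted p under 0.05 with no block (0.0267 by limma). Gtse1, a microtubule-binding regulator of p53 in G2, had a log2 change of -0.72 (adjusted p = 0.0946) and Melk, a mitotic kinase, 0.55. Cdkn1a, the CDK inhibitor p21, measured 6422.5 and 4976.4 untreated and 4238.6 and 4070.3 treated (-0.44 ± 0.15, adjusted p = 0.0951). Foxm1 was lower at both dates (-0.23 ± 0.21, limma, adjusted p = 0.593) and Mybl2, which encodes B-MYB, higher at both (0.39 ± 0.24, adjusted p = 0.403). Neither passed, and their part in the other changes was not tested. Of 26 other kinetochore and checkpoint genes 0 passed (1 at an unadjusted p under 0.05 by limma), and Cenpb, which binds centromeric DNA, had a log2 change of -0.80 (adjusted p = 0.0699) and Zwilch 0.45. Of 12 genes of the anaphase-promoting complex 0 passed (2 unadjusted), with Anapc16 at -0.64 and Ube2s at 0.37, and of 6 other condensin and chromosome genes 0 passed (2 unadjusted), with Top2b, the paralog of Top2a that does not depend on the cell cycle, at -0.62 and Ncaph at 0.51.

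**Figure D4:**
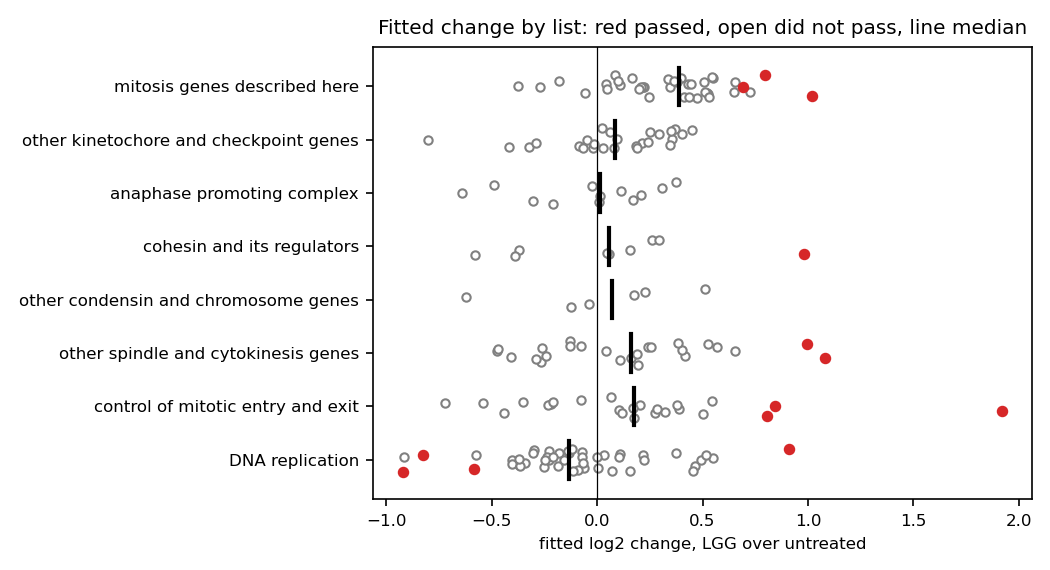
Fitted log2 change of LGG over untreated (horizontal axis) of each tested gene, by list, with genes that passed in red, others open and the median as a black line. The mitosis genes have the highest median (0.39) of the lists drawn, and the DNA replication genes the lowest (-0.13). The lists were chosen with earlier results of these data known.

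The DNA replication list holds genes that prepare for S phase or act in it. Of 47 tested 1 rose and 3 fell, with a median log2 change of -0.13 (-0.11 at date 1 and -0.19 at date 2), and 23 were lower at both dates (30.2% of all genes were), 10 higher at both and 14 opposite. The ribonucleotide reductase subunit genes Rrm2 (-0.92) and Rrm1 (-0.82) and the helicase subunit gene Mcm7 (-0.58) fell, and Cdc45, which activates that helicase, rose (0.91). With no block 0 of these 4 passed (limma, adjusted p = 0.0656 to 0.198). Pola1 (-0.91) and Uhrf1 (-0.57) were lower at both dates but did not pass with the block. At date 1 the medians of the mitosis and replication genes were 0.28 and -0.11, and at date 2 they were 0.42 and -0.19, so the order was the same at each date. The lists were compared by these values, with no test of the difference.

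**Figure D5:**
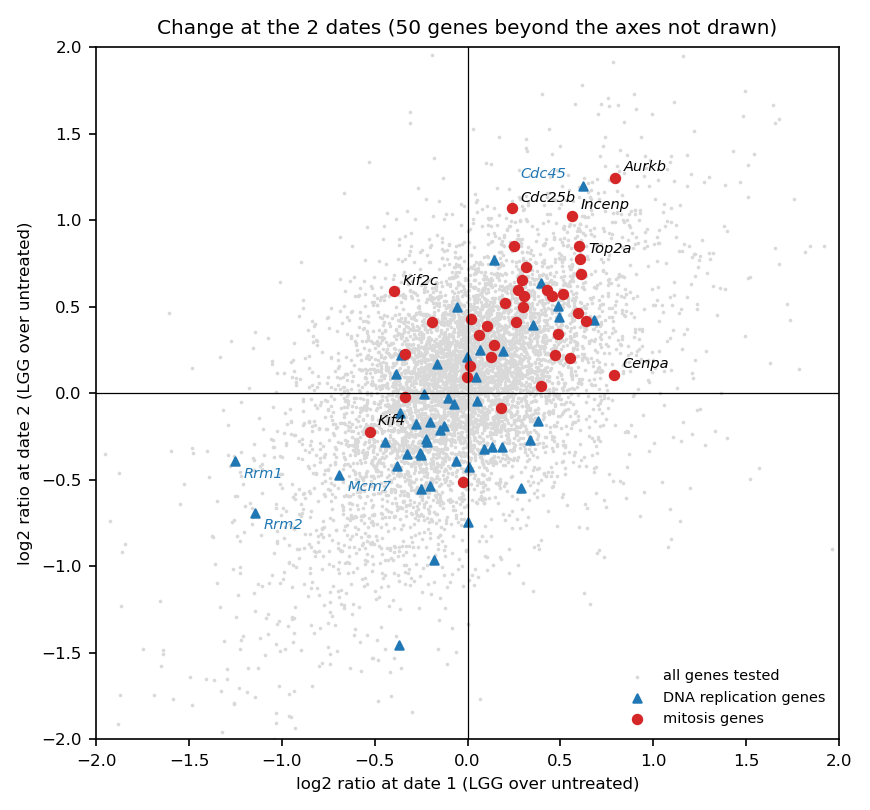
Log2 ratio of LGG over untreated at date 1 (horizontal) and date 2 (vertical) for all genes tested (grey), DNA replication genes (blue triangles) and mitosis genes (red), with 50 genes beyond 2 on either axis not drawn. Of the 38 mitosis genes 30 lie in the upper right, above 0 at both dates, and 23 of the 47 replication genes lie in the lower left.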

How the data were processed

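The values are linear intensities as deposited by the authors in a single table, and the sources used here do not give the software, scaling or filters behind them. Array titles gave group and date. The dates pair 1 array of each group, so date entered the fit as a block. Across probe sets, deviations from the group means of arrays sharing a date had a correlation of 0.27. The pseudocount was 5% and the filter 20% of the trimmed mean (25.2 and 101). After 64 control probe sets were left out, 16319 had all values and 10335 passed the filter. Probe set names came from the platform annotation, and none was named from an entry with several genes. A gene was read from its brightest probe set. Changes on the log2 scale were fitted with limma 3.58.1 (R 4.3.3; lmFit and eBayes with an intensity trend) at a threshold of 0.05, with 1 residual and 12.5 prior degrees of freedom, so SE and p rest mostly on variance shared across genes. With 2 arrays per group the smallest two-sided p of an exact permutation test is 0.333. On simulated data the fit recovered the changes put in, with more false calls than the threshold allows in most runs. The genes and lists were chosen with earlier results of these data known. The text gives the genes that passed and up to 3 others per role (2 per related list), ranked by size of change where both dates had one sign. It also gives genes whose probe sets disagree. Birc5, Mki67, Ccna2, Ccnb2, Bub1b, Smc2, Cdc25c, Cdc20, Kif2c, Ect2, Stmn1 and the genes read at date 2 only were added to account for the set. Cdkn1a, Foxm1 and Mybl2 were added from the related genes outside this ranking. Alternatives changed the block, pseudocount, filter, scaling, variance trend, probe set rule and the arrays used. Figures were drawn with matplotlib 3.10.9.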

Additional observations from a re-analysis of the deposited data

How the results depend on the processing

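The median log2 change of the 38 mitosis genes stayed above that of all genes under the alternatives run, and 0 of them fell under any. The number that rose, 3 with date as a replicate block, was 0 with no replicate block (11 at an unadjusted p under 0.05 by limma), 0 with no filter on dim probe sets (17 unadjusted), 1 with no intensity trend (Aurkb) and 8 when the probe sets of a gene were averaged. Those 8 were Aurkb, Top2a, Bub1, Cdc25b, Mad2l1, Pttg1, Tacc3 and Prc1, without Incenp (adjusted p = 0.156). Leaving out 1 array, in fits with no block, gave 0 to 6 genes that rose, with 0 unless LGG replicate 1 was the one left out (3 unadjusted without untreated replicate 1, 5 without untreated replicate 2 and 7 without LGG replicate 2), and medians from 0.22, without LGG replicate 2, to 0.48, without LGG replicate 1. Over these settings the adjusted p of Aurkb ran from 0.0031 to 0.615, that of Top2a from 0.00114 to 0.679 and that of Incenp from 0.0457 to 0.700. Incenp also missed the threshold with a pseudocount of 1% (adjusted p = 0.0584), with the filter at 50% (0.0526) and under median scaling (0.0678) or quantile normalization (0.057). Of the 147 related genes, 7 rose and 3 fell. These counts were 1 and 0 with no replicate block, 0 and 0 with no filter (16 and 14 unadjusted), 4 and 0 with no intensity trend, 9 and 12 with averaged probe sets, and 0 to 4 and 0 to 2 with 1 array left out. Changes that did not pass turned sign in 10 cases. Bub3 was -0.20 on its brightest probe set without the suffixes _x_at and _s_at. With 1 array left out, the log2 change ran from -0.21 to 0.30 for Cdc25c, -0.081 to 0.299 for Cdc20, -0.50 to 0.70 for Kif2c, -0.30 to 0.18 for Racgap1 and -0.27 to 0.36 for Ect2. The cause of these differences was not tested. Taking only probe sets without the suffixes _x_at and _s_at, an alternative chosen after seeing the data, left Aurkb without a value and 2 genes that rose. Dim probe sets and those without a date 1 value limit what can be said of Cenpe, Kif23, Tpx2, Ncapg, Ube2c and Anln.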
